A study of Mus musculus with 4 samples.

Results

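Streptozotocin (STZ) was given to mice that report insulin production with green fluorescent protein, and the question followed here is how the RNA of their insulin-positive cells with little Glut2 (labelled Glut2L) differed from that of vehicle-injected mice. The animals were male MIP-GFP mice on C57BL/6, aged 6 to 8 weeks, in which the mouse insulin 1 promoter drives the reporter. The control group received vehicle. The STZ group received 200 mg/kg intraperitoneally, and its diabetes was established 4 days later. Cells of both groups came from pancreatic islets, and a second gate of insulin-positive cells with much Glut2 (Glut2H) was sorted under each treatment and is used here for reference. The labels name 3 mice per group, but the sources used here do not say whether their cells were pooled. Each of the 4 groups holds 1 library of total RNA. No difference was therefore tested, no spread between animals can be had, and "higher" or "lower" below describes 2 libraries.

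Genes entered the comparison by a rule on level and annotation that did not use their difference. A gene needed a status of OK in both Glut2L libraries, at least 5 FPKM (sequenced fragments divided by transcript length and library size) in one of them and a locus of 300 bp or more, and predicted genes and small RNAs were left out. Of 39170 rows, 38733 had the status, 10141 of these also the level, 9952 the locus, 8786 were not predicted genes, and 8672 remained after small RNAs. Protein-coding genes made up 8531 of the 8672. Differences are log2 ratios of FPKM plus 1, STZ over control. The level limit was reached narrowly by Skint8, at 3.45 and 5.001 FPKM in control and STZ, and Taf8, at 3.57 and 5.002. It was missed narrowly by Hsd17b14, at 4.999 and 0.894, and Zfp563, at 3.52 and 4.997.

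STZ is a methylating toxin with a glucose moiety that enters rodent beta cells through Glut2, the glucose transporter encoded by Slc2a2. Inside the cell it alkylates DNA, which engages base excision repair and the p53 pathway and can deplete NAD. A cell with little Glut2 takes up less of it. Islets lie within the exocrine pancreas, whose acinar cells make digestive enzymes in very large amounts, so enzyme RNA is often found in islet preparations.

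The labels were first set against the transcripts. Slc2a2 stood at 40.96 FPKM in the Glut2L control library and 33.7 after STZ, against 8.74 and 10.8 in the Glut2H libraries. The libraries labelled Glut2L thus held more Slc2a2 RNA than those labelled Glut2H, opposite to what the names say, and the names are kept here as labels only. Ins2 stood at 294540.0 and 175841 FPKM and Ins1 at 30842 and 20766 in Glut2L control and STZ. The beta cell factor Mafa stood at 106 and 127 FPKM. Several defining markers of other lineages were near 0 in both Glut2L libraries. Ptprc of blood cells stood at 0.457 and 1.105 FPKM, Cdh5 of endothelium at 0.814 and 0.142, Col1a1 and Dcn of stroma at 1.01 and 0.619 and at 1.16 and 2.24, and Sox9 of ducts at 0.651 and 0.229. Pecam1 of endothelium was low but measurable at 2.96 and 4.41. Cd74 of antigen-presenting cells at 32.4 and 46.9 and Krt19 of ducts at 16.7 and 34.3 were not near 0. Acinar markers and the hormones of other islet cells were abundant, and they are described below. All 13 mitochondrially encoded protein genes were listed at 0 in all 4 libraries.

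Most of the 8672 genes were close in the 2 libraries. The median log2 ratio was -0.01, 6246 genes (72.0%) lay within 1.5-fold, and the 5th and 95th percentiles were -1.13 and 1.09. At least 2-fold higher after STZ were 500 genes (5.77%), and 545 (6.28%) were at least 2-fold lower. Of the 500, 292 were below 5 FPKM in the control library and so entered only through the STZ library, and 21 of them were listed at 0 in control. Of the 545, 280 were below 5 FPKM after STZ, and 13 were listed at 0 there. The direction of all these one-sided genes was bound by the level limit, also where such a gene is named below. The fold rule was met by 15.2% of genes whose higher library lay between 5 and 10 FPKM and by 7.70% of the 675 genes that reached 100. Among those 675, 9 were higher and 43 lower, and 16 of the 43 were acinar enzyme genes, acinar granule genes or Reg1. The scale matters to these counts: when the libraries were set to an equal sum of FPKM over all members, the median ratio became 0.39, with 1085 genes higher and 290 lower, so that 78.9% of the calls were higher instead of 47.8%. An equal sum without Ins1 and Ins2, chosen after the values were seen, gave a median of 0.23, with 774 higher and 360 lower. Differences below are on the deposited scale, and a list is read against the median of all members.

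**Figure D1:**
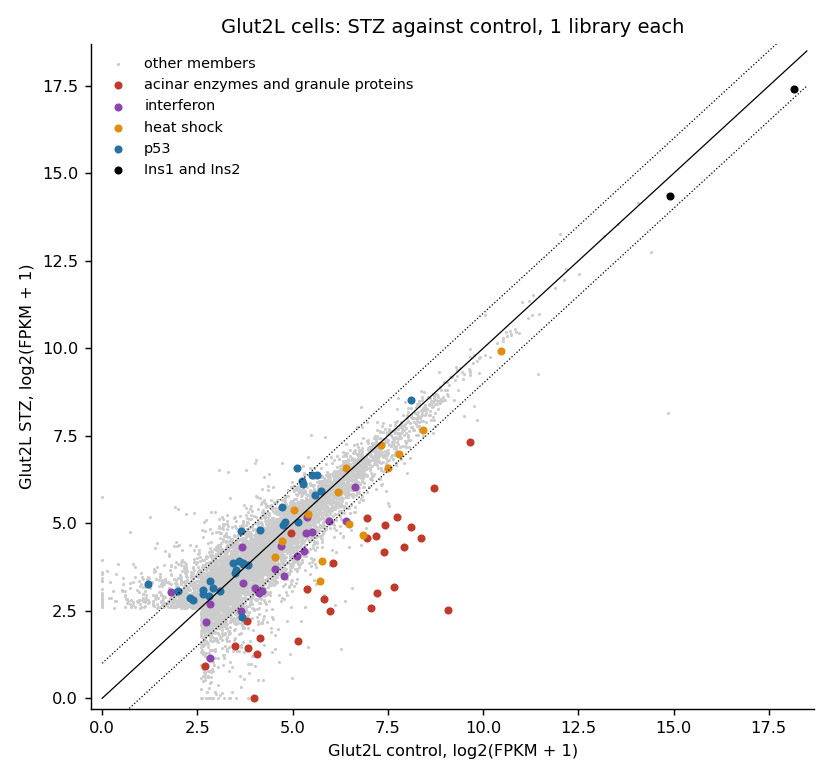
Each point is 1 of the 8672 genes, with log2 of FPKM plus 1 in the Glut2L control library on the x axis and in the Glut2L STZ library on the y axis. The solid line marks equal values and the dotted lines a ratio of 2 on the log2(FPKM + 1) scale. The acinar genes lie below the lower dotted line with 1 exception, while most interferon and heat shock genes lie between it and the solid line and most p53 targets just above the solid line.

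The deposited table gives a lower and an upper bound beside each FPKM, and the bounds of the 2 libraries did not overlap for only 32 genes that differed at least 2-fold. Of these, 25 were lower after STZ (0.288% of members) and 7 higher (0.0807%). The 25 lower genes were acinar to a large extent: 19 belong to the lists of acinar enzymes and granule proteins, and Reg1 makes 20. The other 5 were Lars2, Lcn2, Gast, Cblc and the pseudogene Rpl31-ps17. The 7 higher genes were 3 histone genes (Hist1h2ab, Hist3h2ba and Hist1h4b), Klhl35, the immunoglobulin segment Ighv5-4, the pseudogene Rps12-ps1 and the lincRNA RP23-292F17.5. Of the 7, 6 were listed at 0 in control, and only Hist1h4b had a value there. Cblc, Ighv5-4, RP23-292F17.5 and the pseudogenes were named after their values were seen.

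Digestive enzyme genes of acinar cells lay lower after STZ almost without exception. Of 28 members in lists of proteases, of lipases, amylases and nucleases, and of zymogen granule proteins, 27 were lower by 2-fold or more after STZ (6.28% of all members were) and none was higher. Their median log2 ratio was -2.64, against -0.01 for all members. Of the 27, 10 passed the level only through the control library, so these 10 had to be lower. Summed over all listed genes, whatever their level, FPKM went from 4417 in control to 559 after STZ, which is 12.6% of the control level. In the Glut2H libraries the same sum was 5671 in control and 6133 after STZ (108%). The origin of the enzyme RNA in these sorted cells was not tested. In such bulk libraries fewer acinar cells, less enzyme RNA per cell and other origins of the RNA cannot be told apart.

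Among proteases all 13 members were lower. Ctrl, a chymotrypsin-like protease (GRCm38 chromosome 8, 105932003 to 105933862, minus strand), stood at 132 FPKM in control and 5.03 after STZ, a log2 ratio of -4.46. The elastase gene Cela2a (chromosome 4, 141814962 to 141826160, minus strand) stood at 241 and 18.9 (-3.60). Its deposited locus is shared with 3 other rows, and its neighbour Ctrc is annotated over the same bases, so the reads of the pair may not be told apart. The trypsin gene Try4 stood at 62.03 and 4.65 (-3.48) and carboxypeptidase A1, Cpa1, at 168 and 16.98 (-3.23). Trypsin genes are near-identical copies, so the split of reads between Try4, Try5 and Prss2 is uncertain, although all of them were lower. The smallest difference among proteases was that of Try5, at 66.2 and 13.5 (-2.21).

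All 8 members of the lipase, amylase and nuclease list were lower too, with a median of -3.14. Clps encodes colipase, the cofactor that anchors pancreatic lipase to fat droplets (chromosome 17, 28558149 to 28560766, minus strand), and stood at 540.2 FPKM in control and 4.75 after STZ (-6.56). The bile salt-dependent lipase Cel stood at 147 and 7.03 (-4.20), pancreatic lipase Pnlip at 329 and 22.7 (-3.80) and the ribonuclease Rnase1 at 34.3 and 2.12 (-3.50). The Glut2H libraries (control, STZ) held 487 and 506 FPKM of Clps. Their Cel level was 146 and 166 FPKM, and their Pnlip level 443 and 446. Amylase copies are near-identical as well, and the only one that was a member, Amy2b, carries a pseudogene annotation.

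Of the 7 granule protein members 6 were lower. Zg16, a lectin of the zymogen granule, stood at 201 and 8.03 (-4.49), the pancreatic disulfide isomerase Pdia2 at 14.9 and 0.000211 (-3.99), the granule membrane protein Gp2 at 10.3 and 1.796 (-2.02) and Sycn, syncollin, at 122 and 34.6 (-1.79). Spink3, the secreted trypsin inhibitor, was the exception at 29.98 and 25.6 (-0.22). Spink3 was named after its values were seen. Reg1, a secreted protein of acinar cells that also marks pancreatic injury, stood at 110.4 and 19.7 (-2.43) in Glut2L and at 114 and 211 in Glut2H control and STZ. The acinar transcription factors could hardly be read: only Bhlha15 reached the level, at 6.94 and 7.56 (0.11), and Ptf1a was listed at 0 in both Glut2L libraries.

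**Figure D2:**
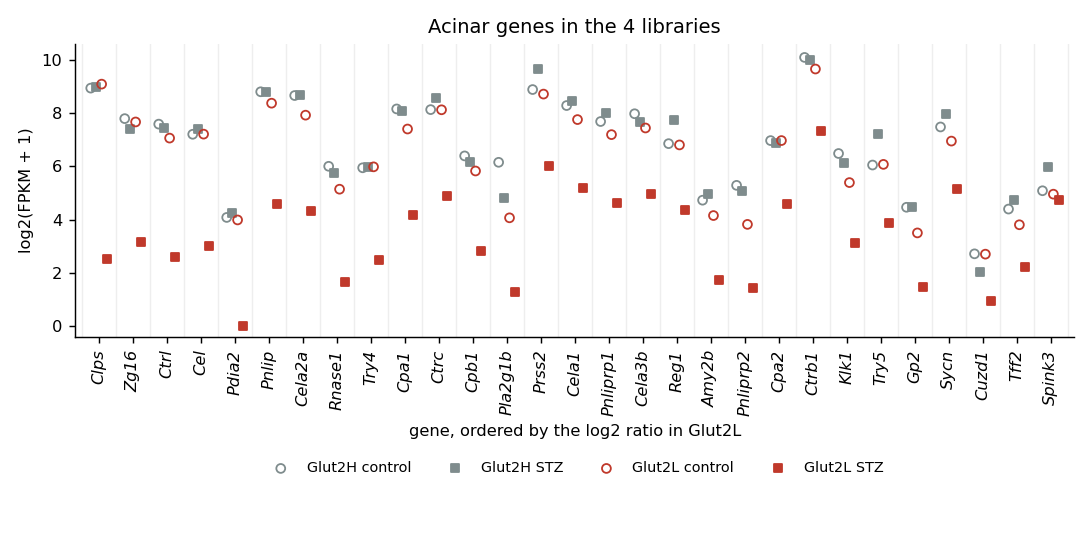
Log2 of FPKM plus 1 (y axis) of the 28 acinar members and Reg1 (x axis), ordered by their log2 ratio in Glut2L, with 1 point per library. The filled red squares (Glut2L STZ) lie below the other 3 libraries for every gene, and for Spink3 by the least.

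The upstream sequences of 4 of these genes are shown because acinar enzyme genes share the E-box bound by PTF1, the transcription factor complex that drives them. They are the 200 bases before the RefSeq start site on GRCm38.p6, 5′ to 3′ on the gene's strand, with CACCTG on either strand (CAGGTG when it lies on the other) in capitals. The genes were picked among those that hold a match.
Cel, chr2:28563404-28563603, minus strand: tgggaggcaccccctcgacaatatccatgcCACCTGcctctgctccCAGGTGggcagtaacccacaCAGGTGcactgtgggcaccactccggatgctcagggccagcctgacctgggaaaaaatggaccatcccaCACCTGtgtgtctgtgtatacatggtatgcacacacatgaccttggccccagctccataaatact
Cela1, chr15:100687921-100688120, minus strand: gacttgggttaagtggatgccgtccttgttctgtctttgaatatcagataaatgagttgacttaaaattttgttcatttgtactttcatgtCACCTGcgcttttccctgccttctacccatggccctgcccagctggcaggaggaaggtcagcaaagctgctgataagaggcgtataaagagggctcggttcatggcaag
Ctrl, chr8:105933863-105934062, minus strand: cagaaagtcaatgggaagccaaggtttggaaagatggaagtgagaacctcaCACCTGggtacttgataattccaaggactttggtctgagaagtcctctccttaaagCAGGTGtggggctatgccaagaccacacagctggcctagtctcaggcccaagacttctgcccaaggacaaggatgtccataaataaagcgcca
Prss2, chr6:41521576-41521775, plus strand: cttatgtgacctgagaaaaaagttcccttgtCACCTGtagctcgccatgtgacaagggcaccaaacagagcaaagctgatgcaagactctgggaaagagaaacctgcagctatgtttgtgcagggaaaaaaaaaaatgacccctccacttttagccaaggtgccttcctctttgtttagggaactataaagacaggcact
Cel holds 4 matches, Ctrl 2, and Cela1 and Prss2 1 each. In Cela1 the match begins at position -109 from the start site. Of the 27 acinar genes that were at least 2-fold lower, 21 have a promoter in the RefSeq table, and 10 of the 21 (47.6%) hold the letters in these 200 bases. The share over all 32851 promoters in the table is 13.9%. The lists were drawn up from known acinar genes, so a high share of this element belongs to the choice of genes. It says nothing about the difference after STZ. A match is a description of the letters and shows no binding. Cela1 stood at 214 and 34.9 FPKM (-2.58) and Prss2, the major anionic trypsin, at 417 and 63.1 (-2.70). Genes without the letters, such as Pnlip and Cpa1, were lower as well.

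Interferon-stimulated genes form the antiviral programme that type I interferon switches on. Of 21 members 8 were lower by 2-fold or more (6.28% of all members were) and 1 was higher (5.77%), and the share of ratios below 0 over all members was 50.9%. Of the 8, 2 passed the level only through the control library, and the 1 higher gene only through the STZ library. The median was -0.84. The same list had a median of -0.74 in the Glut2H pair, where 7 of 23 members were at least 2-fold lower (8.19% of all Glut2H members) and 0 higher (6.83%). Summed FPKM of the list was 58.6% of control in Glut2L and 59.0% in Glut2H. Ratios below 0 were seen for 19 of 21 members in Glut2L and 21 of 23 in Glut2H, while most of the members met the fold rule in neither direction.

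Gbp3, an interferon-induced GTPase, stood at 6.12 FPKM in Glut2L control and 1.23 after STZ (-1.68), and at 19.04 and 11.5 in the Glut2H pair. Xaf1, a pro-apoptotic antagonist of XIAP, stood at 83.2 and 32.8 (-1.32) and at 115 and 102 in Glut2H. The antiviral enzyme viperin, Rsad2, stood at 26.3 and 10.2 (-1.28) and at 292 and 131. Ifit3, a member of the antiviral IFIT complexes, stood at 11.6 and 4.63 (-1.17) and at 105 and 38.4. Gbp3, Rsad2 and Ifit3 were several times more abundant in Glut2H control than in Glut2L control, and for all 3 the lowest of the 4 values was that of Glut2L STZ. The other 4 lower genes, Stat2, Ifit1, Irf7 and Usp18, had ratios between -1.12 and -1.05. Mx1, a GTPase against influenza virus, was the 1 higher gene at 2.52 and 7.22 (1.22), with 45.9 and 46.1 in Glut2H. The bounds of the 2 libraries overlapped for each of the 9, and under an equal sum of FPKM only 1 gene of the list was at least 2-fold lower and 2 were higher, while the list's median stayed below that of all members (-0.45 against 0.39).

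Upstream sequences of 4 lower interferon genes follow, in the same layout. Capitals mark 2 copies of TTTC with 2 bases between them, on either strand, the repeated core of the element that binds STAT and IRF factors.
Gbp3, chr3:142559844-142560043, plus strand: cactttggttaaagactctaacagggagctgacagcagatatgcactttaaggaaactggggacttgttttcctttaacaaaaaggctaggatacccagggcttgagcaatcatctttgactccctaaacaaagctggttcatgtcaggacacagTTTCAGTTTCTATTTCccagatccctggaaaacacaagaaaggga
Ifit1, chr19:34640689-34640888, plus strand: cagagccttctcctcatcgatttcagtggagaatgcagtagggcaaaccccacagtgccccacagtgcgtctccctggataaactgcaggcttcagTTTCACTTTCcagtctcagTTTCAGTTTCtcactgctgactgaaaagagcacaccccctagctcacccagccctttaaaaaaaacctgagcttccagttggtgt
Ifit3, chr19:34583329-34583528, plus strand: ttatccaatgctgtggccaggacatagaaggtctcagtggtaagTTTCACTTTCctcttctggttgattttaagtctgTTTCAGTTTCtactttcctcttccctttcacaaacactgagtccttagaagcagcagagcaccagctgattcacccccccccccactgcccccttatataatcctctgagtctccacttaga
Rsad2, chr12:26456453-26456652, minus strand: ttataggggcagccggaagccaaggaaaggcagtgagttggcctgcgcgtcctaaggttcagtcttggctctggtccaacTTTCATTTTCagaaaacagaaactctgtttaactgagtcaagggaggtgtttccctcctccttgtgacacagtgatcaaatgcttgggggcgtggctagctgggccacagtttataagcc
Of the 8 interferon genes that were at least 2-fold lower, 7 have a promoter in the table and 4 of these hold the letters. Among all 21 members, 16 have a promoter and 6 of them hold the letters (37.5%), against 2.27% of all promoters in the table. The 2 matches in Gbp3 overlap by the shared TTTC. The list was drawn up from known interferon targets, so a high share of this element belongs to the choice of genes.

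Antigen presentation genes, many of which interferon also raises, mostly differed by less than 2-fold. Of 14 members 1 was at least 2-fold lower, a share near the 6.28% of all members, and 0 higher. In this list 12 ratios were below 0 (50.9% over all members), and the median was -0.45 (-0.24 in Glut2H). Tap2, which pumps peptides into the endoplasmic reticulum (ER), stood at 78.96 and 23.7 (-1.69), and its locus is shared with 3 other rows. The highest was the proteasome activator Psme2 at 124 and 237 (0.93). Among chemokines and cytokines only 6 of 20 rows were members, and Il6 was the 1 gene at least 2-fold apart, at 2.59 and 7.58 (1.26). In Glut2H, Il6 stood at 97.9 and 22.5 in control and STZ. The lowest ratio was that of the T cell chemokine Ccl5, at 29.6 and 16.3 (-0.82).

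Heat shock chaperones refold damaged protein and are induced by HSF1. Of 15 members 4 were lower by 2-fold or more after STZ (6.28% of all members were) and 0 higher. Ratios were below 0 for 13 of the 15 (50.9% over all members), with a median of -0.55. The small chaperone Hspb1 stood at 51.8 and 9.21 FPKM (-2.37). The inducible Hsp70 genes Hspa1b (chromosome 17, 34956436 to 34959238, minus strand) and Hspa1a stood at 115 and 24.2 (-2.20) and 53.3 and 14.2 (-1.84). These 2 genes are near-identical, so their split is uncertain, but both were lower. Hsph1, a nucleotide exchange factor for Hsp70, stood at 88.6 and 30.6 (-1.50). In the Glut2H libraries Hspb1 stood at 9.48 and 6.82, Hspa1b at 29.3 and 15.3 and Hspa1a at 10.4 and 3.92 in control and STZ. The Glut2L control library was thus the highest of the 4 for each of these genes, and the Glut2L STZ value lay nearer to the Glut2H values than to the Glut2L control. Bounds overlapped for all 4.

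**Figure D3:**
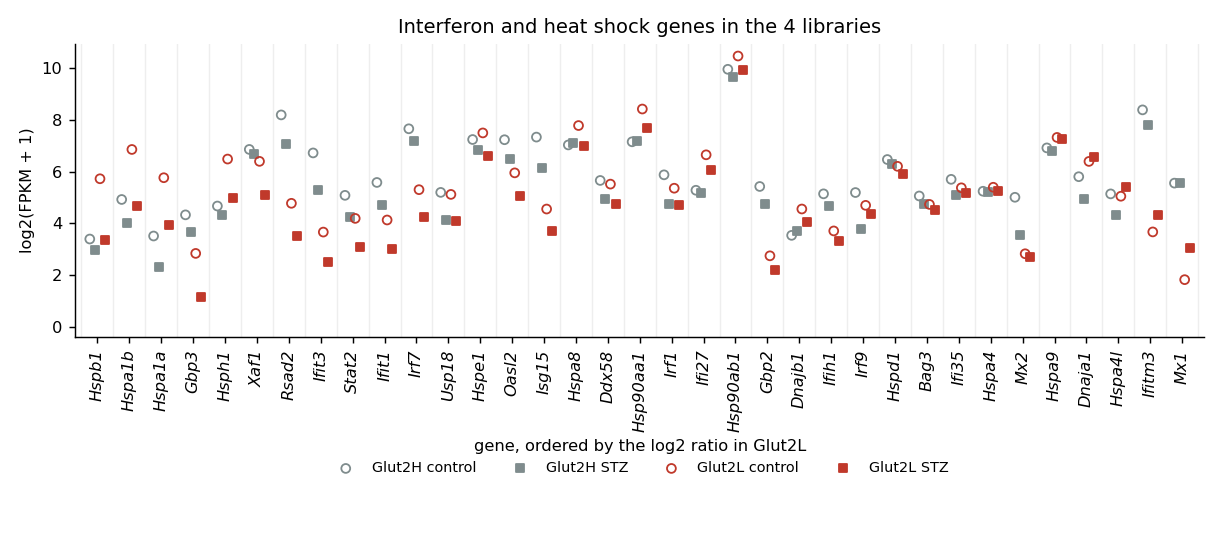
Log2 of FPKM plus 1 (y axis) of 20 of the 21 interferon members and the 15 heat shock members (x axis), ordered by their log2 ratio in Glut2L, with 1 point per library. Heat shock genes at the left are highest in Glut2L control (open red circles), whereas most interferon genes are highest in Glut2H control (open grey circles).

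Metallothioneins bind zinc and copper and are induced by metals and glucocorticoids. Mt1 stood at 862 FPKM in Glut2L control and 327 after STZ (-1.39), and Mt2 at 725 and 266 (-1.45). In Glut2H the pairs were 975 and 891 and 1131 and 761. The deposited Mt2 values lie above their own upper bounds in both Glut2L libraries. Of the 13 members of the zinc and metallothionein list these were the only 2 at least 2-fold apart, and the list's median was 0.10.

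The protein folding genes of the ER showed a small difference of 1 sign. None of 19 ER chaperones was 2-fold apart, yet all 19 ratios were below 0, with a median of -0.32 that became 0.09 under an equal sum of FPKM, still under the 0.39 of all members. Sdf2l1, a partner of the ER Hsp70, had the lowest ratio at 99.7 and 55.2 (-0.84), and Dnajb9, a cochaperone, the highest at 129.6 and 128 (-0.02). In Glut2H the list's median was 0.01. The signalling side of ER stress was split, with 8 of 17 ratios above 0, from the transcription factor Ddit3 (CHOP) at 345 and 180.1 (-0.93) to the glutathione-degrading enzyme Chac1 at 38.9 and 60.3 (0.62). Respiratory chain genes of the nucleus had 27 of 35 ratios below 0 and cytosolic ribosomal protein genes 65 of 80 (50.9% over all members). Their medians of -0.16 and -0.27 became 0.26 and 0.15 under an equal sum, also still under the 0.39 of all members. The respiratory list ran from Ndufv1 at 76.4 and 39.5 (-0.93) to Atp5o at 112 and 134 (0.26). The 1 ribosomal protein gene at least 2-fold apart was Rpl10a at 91.3 and 45.1 (-1.001), and the highest was Rpl35a at 34.9 and 47.9 (0.45).

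**Figure D4:**
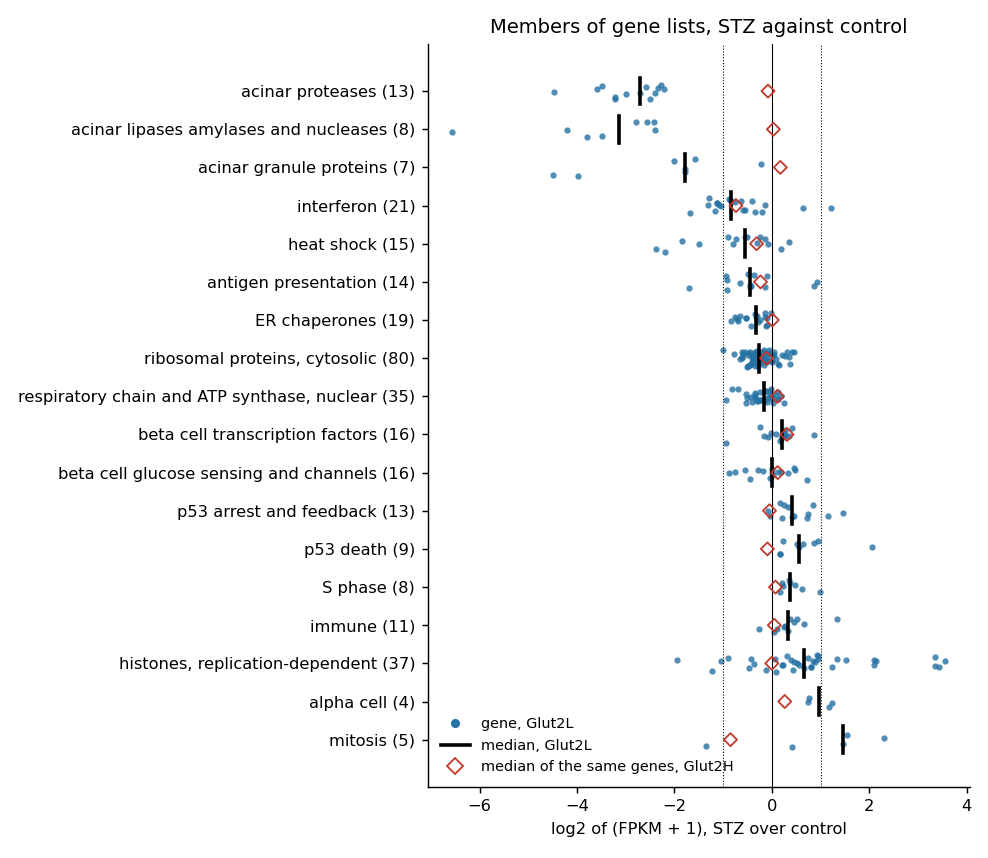
Log2 ratios of FPKM plus 1, STZ over control (x axis), for the members of 18 gene lists (rows, with the number of members). Points are genes in Glut2L, black bars their medians, and red diamonds the medians of the same genes in the Glut2H libraries. The acinar lists have their bars between -3.14 and -1.79 and their diamonds near 0, while bar and diamond lie close together for interferon genes.

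p53 targets lay slightly above 0 as a group. Of 32 members in lists for arrest and feedback, death, and repair and metabolism, 28 had a ratio above 0 (49.1% of all members did), 4 were at least 2-fold higher (5.77% of all members were) and 1 lower (6.28%). Of the 4, 2 passed the level only through the STZ library, and the lower gene only through the control library. The median was 0.38, and in Glut2H it was -0.02. For arrest, Ccng1 (cyclin G1, a feedback partner of MDM2) stood at 33.8 and 94.6 (1.46) and the kinase Plk2 at 11.5 and 26.6 (1.14). For death, the receptor Fas stood at 1.31 and 8.63 (2.06), a level reached only through the STZ library, and Perp, a membrane protein of apoptosis, had the lowest ratio at 10.4 and 11.7 (0.16). For repair and metabolism, Cpt1c stood at 2.95 and 7.41 (1.09) and Sco2, which assembles cytochrome oxidase, at 11.7 and 3.96 (-1.36). In Glut2H, Ccng1 stood at 33.1 and 41.9, Plk2 at 64.8 and 42.2 and Fas at 4.698 and 0.137 in control and STZ. Bounds overlapped for all 5 of the genes that were 2-fold apart.

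Repair of alkylated bases showed no common direction, with 9 of 15 ratios above 0 (49.1% over all members). At least 2-fold higher were 2 genes (5.77% of all members were) and lower 1 (6.28%). The glycosylase Neil1 stood at 2.39 and 8.84 (1.54), Alkbh3, which removes methyl groups from DNA and RNA directly, at 19.6 and 43.8 (1.12), and the endonuclease Apex2 at 12.9 and 4.15 (-1.43). Neil1 passed the level only through the STZ library and Apex2 only through the control library, so their directions were bound. The NAD list had 6 members, none 2-fold apart, from Nampt at 15.01 and 11.9 (-0.31) to Nadsyn1 at 4.22 and 6.19 (0.46). The list of the Bcl2 family, which decides mitochondrial cell death, leaves out Bax. It had 9 of 11 ratios below 0 (50.9% over all members) and a median of -0.56. At least 2-fold lower (6.28% of all members) were 2 genes that passed the level in control alone, so their direction was bound to be this one. These were Bid, which links caspase 8 to mitochondria, at 6.41 and 0.786 (-2.05), and Bcl2a1b, a survival protein of blood cells, at 5.31 and 1.39 (-1.40), 1 of several near-identical copies. Bax belongs to this family too but was counted among the p53 targets. It stood at 44.2 and 81.7 (0.87), above the highest ratio on the Bcl2 list (0.43), and was named after its values were seen. Antioxidant genes were split evenly, with 10 of 20 ratios on each side, from the mitochondrial thioredoxin Txn2 at 135 and 73.9 (-0.86) to catalase, Cat, at 3.64 and 9.42 (1.17).

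Genes of dividing cells were low in all libraries and mostly a little higher after STZ in Glut2L. Only 5 of 23 mitosis genes were members. Of these, 3 were at least 2-fold higher (5.77% of all members were). They were the checkpoint kinase Bub1b at 0.518 and 6.51 FPKM (2.31), the spindle assembly factor Tpx2 at 1.82 and 7.27 (1.55) and Nusap1, which bundles microtubules, at 2.96 and 9.86 (1.46). All 3 passed the level only through the STZ library, so their direction was bound to be this one. The mitotic cyclin Ccnb1 was at least 2-fold lower (6.28% of all members were), at 7.14 and 2.197 (-1.35), and passed only through the control library. Without the level limit, 19 of the 23 mitosis ratios were above 0, against 48.9% of 15985 genes with any value in Glut2L. Summed over the 23 genes, FPKM was 40.2 in control and 72.7 after STZ in Glut2L, and 31.5 and 19.6 in Glut2H. Mki67, the proliferation antigen, was below the limit at 1.17 and 2.72 FPKM and is named after its values were seen.

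All 8 S phase members had ratios above 0 (49.1% over all members), with a median of 0.36, and none was called 2-fold apart. Under an equal sum of FPKM the median was 0.78, against 0.39 for all members. They ran from the replication helicase subunit Mcm6 at 5.98 and 6.87 (0.17) to Dut, which clears dUTP, at 9.698 and 20.3 (0.996, just short of the threshold). Without the level limit 14 of 20 S phase ratios were above 0, against 48.9% of all genes with any value in Glut2L. Among 11 G1 cyclins, kinases and inhibitors, the pocket protein Rbl2 was the 1 gene at least 2-fold apart, at 9.17 and 3.62 (-1.14), and Rb1 had the highest ratio at 18.4 and 35.4 (0.91).

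Replication-dependent histone genes give messages without a poly(A) tail that are abundant in S phase, and total RNA libraries such as these retain them. Of 70 rows for such genes, 37 were members, 10 at least 2-fold higher (5.77% of all members were) and 3 lower (6.28%), with a median of 0.67. The Glut2H pair gave the same counts, 10 higher and 3 lower, among 29 histone members, with a median of 0.15. Of the 10 higher in Glut2L, 8 passed the level only through the STZ library. Hist1h4b stood at 2.78 and 43.6 (3.56), and its bounds did not overlap. Hist3h2ba, Hist1h2af and Hist1h2ab were listed at 0 in control and stood at 9.86, 9.15 and 9.14 after STZ. The 3 lower genes were Hist1h4a at 8.76 and 1.54 (-1.94), Hist1h4k at 45.4 and 18.8 (-1.23) and Hist1h3i at 11.9 and 5.28 (-1.04). Hist1h4k lies above its own upper bound in both libraries. Histone genes of 1 class are near-identical in their coding part, so the value of a single gene is uncertain. The sum over all 70 rows was 1660.2 FPKM in control and 2167 after STZ (131%) in Glut2L, and 1304 and 1259.9 (96.6%) in Glut2H.

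**Figure D5:**
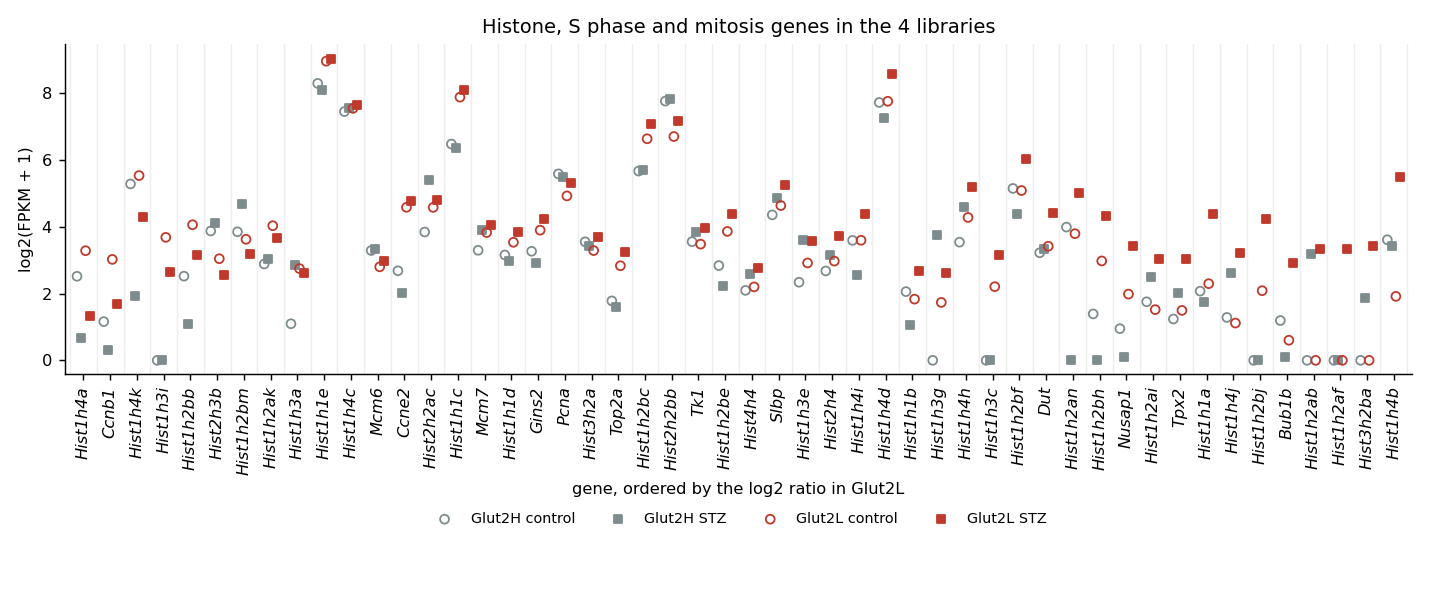
Log2 of FPKM plus 1 (y axis) of the 37 histone, 8 S phase and 5 mitosis members (x axis), ordered by their log2 ratio in Glut2L, with 1 point per library. The filled red squares (Glut2L STZ) lie above the open red circles (Glut2L control) from Hist1h1e to the right, and wide gaps occur among genes listed at 0 in control.

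Beta cell identity genes differed little. Of 16 members among beta cell transcription factors and 16 among genes of glucose sensing and ion channels, none was 2-fold apart, and the medians were 0.20 and 0.01. The lowest factor was Mlxipl (ChREBP, a glucose-sensing factor) at 18.1 and 8.88 (-0.95), and the highest was Foxa2 at 12.8 and 24.2 (0.87). On the other list the fatty acid receptor Ffar1 was lowest at 43.8 and 23.2 (-0.89) and the cation channel Trpm5 highest at 6.08 and 10.6 (0.72). Insulin messages were lower by less than 2-fold, with log2 ratios of -0.74 for Ins2 and -0.57 for Ins1, while Iapp, the amyloid peptide released with insulin, stood at 11883 and 12067 (0.02). The Ins2 control value lies outside its own bounds. Insulin made up 40.3% of the members' summed FPKM in control and 32.7% after STZ.

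Prohormone processing and granin genes had 10 of 15 ratios below 0 and a median of -0.07, from the imprinted proteolipid Nnat at 22.4 and 11.3 (-0.93) to the granin-like Vgf at 206 and 225 (0.13). Exocytosis genes had 10 of 15 below 0, from the priming factor Unc13a at 42.99 and 21.6 (-0.96) to the SNARE protein Stx1a at 14.4 and 20.995 (0.52). Glucagon, the alpha cell hormone, was the islet hormone furthest apart: Gcg (chromosome 2, 62474530 to 62483650, minus strand) stood at 4170.0 FPKM in control and 9893 after STZ (1.25). The vitamin D binding protein Gc, another alpha cell gene, stood at 13.2 and 30.96 (1.17). All 4 alpha cell members had ratios above 0. In Glut2H, Gcg stood at 2287 and 4337 and Gc at 11.5 and 16.1. Bounds of Gcg and Gc overlapped. The 5 members among delta, PP and epsilon genes lay between pancreatic polypeptide, Ppy, at 4649 and 4962 (0.09) and Rbp4 at 97.3 and 132 (0.43).

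Immune, endothelial and stromal markers had low summed levels in both Glut2L libraries, whereas ductal and epithelial markers did not. Immune genes summed to 141 FPKM in control and 189.7 after STZ, against 4278 and 4936 in Glut2H. Of 11 immune members 10 had ratios above 0, and the lymphocyte antigen Cd52 was the 1 gene at least 2-fold apart, at 5.11 and 14.5 (1.34), with lysozyme, Lyz2, lowest at 7.92 and 6.39 (-0.27). Endothelial genes summed to 44.9 and 21.8 FPKM, with Plvap of fenestrated capillaries at 5.32 and 0.795 (-1.82) and Egfl7 at 13.7 and 3.73 (-1.63), both members only through the control library. Stromal genes summed to 67.7 and 29.3, with the matrix protein Sparc at 19.1 and 3.55 (-2.14) and the intermediate filament gene Vim at 33.7 and 11.97 (-1.42). Sparc, too, was a member only through the control library. Without the level limit, 11 of 13 endothelial and 10 of 16 stromal ratios were below 0, against 51.1% of all genes. Their part in the results above was not tested. Ductal and epithelial genes summed to 1377 FPKM in control and 1222.7 after STZ, against 674 and 626 in Glut2H. The general epithelial keratins Krt8 and Krt18, named after their values were seen, stood at 449.8 and 309.9 (-0.54) and 395 and 357 (-0.15). The list had 6 of 11 ratios above 0, from Krt7 at 65.7 and 35.98 (-0.85) to Ambp, a plasma protein precursor, at 6.36 and 25.3 (1.84). Of 6 red blood cell genes none was a member. The glial list had 3 members, from Cryab at 8.11 and 4.94 (-0.62) to Mbp at 25.98 and 24.4 (-0.09).

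Genes tied to immature or altered beta cells were few among the members. Of 16 progenitor genes 4 were members and none was 2-fold apart, and Procr had the lowest ratio at 13.7 and 10.7 (-0.32). Of 8 dedifferentiation genes 4 were members, and 2 of these were at least 2-fold lower (6.28% of all members were). They were Vim, above, and the hormone gastrin, Gast (chromosome 11, 100334407 to 100336996, plus strand), at 23.8 and 1.06 (-3.59). Gast passed the level only through the control library and so had to be lower. In Glut2H, Gast stood at 10.2 in control and was listed at 0 after STZ. Genes normally silenced in beta cells gave 2 lower (6.28% of all members were) and 2 higher (5.77%) of 8 members. Hexokinase 1, Hk1, stood at 27.6 and 3.62 (-2.63) and Acot7 at 10.6 and 1.57 (-2.17), while the growth factor Igf1 stood at 0.294 and 5.81 (2.40) and Cat as given above. Each of these 4 was below 5 FPKM in one library and passed the level only through the other, so its direction was bound to be this one.

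Notch receptors pass signals between touching cells and act in pancreatic progenitors. Notch1 (chromosome 2, 26457903 to 26516663, minus strand) stood at 82.4 FPKM in control and 5.87 after STZ (-3.60), and Notch4 at 9.59 and 0.133 (-3.22). The non-canonical ligand Dlk1 stood at 8.57 and 23.7 (1.37). In Glut2H the pairs were 17.3 and 28.7 for Notch1, 6.43 and 19.8 for Notch4 and 5.58 and 2.02 for Dlk1, in the opposite direction each time. The locus of Notch1 is shared with 3 other rows and holds 1 annotated small RNA gene. The Notch target Hes1, named after its values were seen, stood at 15.9 and 25.4 (0.65). Of the 6 Notch members 4 had ratios above 0.

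In the TGF-beta, activin and BMP list 3 of 13 members were at least 2-fold higher (5.77% of all members were) and none lower. Of the 3, Smad7 and Inhba passed the level only through the STZ library and so had to be higher. The inhibitor Smad7 stood at 3.05 and 20.02 (2.37), the BMP target Id3 at 57.2 and 176 (1.60) and the activin subunit Inhba at 2.72 and 9.73 (1.53). In Glut2H they stood at 41.2 and 39.2, 130.2 and 127 and 37.2 and 26.9, with ratios of -0.07, -0.03 and -0.45. Among imprinted genes 3 of 15 members were higher (5.77% of all members) and 2 lower (6.28%). The higher ones were Mest at 5.41 and 31.6 (2.35), the growth factor receptor adaptor Grb10 at 10.2 and 29.5 (1.45) and Dlk1. The lower ones were the growth factor Igf2 at 9.22 and 1.04 (-2.33) and Sgce, a sarcoglycan, at 12.1 and 3.103 (-1.67). Both lower genes passed the level only through the control library and so had to be lower. Igf2 is a neighbour of Ins2, and Mest and Igf2 hold annotated small RNA genes. In the insulin and IGF list 11 of 14 ratios were above 0 (49.1% over all members). Insr, the insulin receptor, at 3.62 and 8.25 (1.003) was called higher and Igf2 lower. Insr passed the level only through the STZ library, so its direction was bound as well.

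The remaining lists gave single genes. Of 6 Wnt members the scaffold Axin1 was lower at 66.4 and 23.5 (-1.46), and Wnt4 had the highest ratio at 4.33 and 8.39 (0.82). Of 18 immediate early genes 13 had ratios below 0, from Ier2 at 27.1 and 15.5 (-0.76), and Nr4a2, an orphan nuclear receptor, was the 1 called, at 7.41 and 33.9 (2.05). Of 7 serotonin genes the hydroxylase Tph2 was lower at 23.2 and 9.99 (-1.14), and Htr2b was highest at 2.97 and 6.599 (0.94). Of 20 glycolysis genes Gpd2, the mitochondrial enzyme of the glycerol phosphate shuttle, was lower at 20.95 and 4.82 (-1.92), and Pfkl was highest at 6.61 and 12.7 (0.84). None of 18 genes of cholesterol and fatty acid synthesis was 2-fold apart, from Srebf1 at 72.2 and 37.9 (-0.91) to Acaca at 12.5 and 17.3 (0.44). None of the 20 listed tRNA synthetase genes was, from Qars at 75.5 and 44.5 (-0.75) to Yars at 89.9 and 119 (0.41). That list leaves out the mitochondrial synthetase gene Lars2, which was lower at 41.2 and 1.74 (-3.94) and is described below.

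The extremes of the ranking were named by a fixed rule, the 20 lowest and 20 highest ratios among protein-coding genes. Of the 20 lowest, 9 are on the acinar lists. The lowest of all was Msrb1 (chromosome 17, 24736642 to 24742778, plus strand), a methionine sulfoxide reductase that contains selenocysteine, at 29498 FPKM in control and 285 after STZ (-6.69). Its control value lies far above its own upper bound of 1018, and the bounds of the 2 libraries overlap. Among all members, 41 (0.473%) had a value outside its own bounds, and 10 of these were at least 2-fold apart. They include 2 more selenoprotein genes, named after their values were seen: Txnrd3 at 2771 and 612 (-2.18) and Sepp1 at 21641 and 6882 (-1.65). Such values are deposited as they are, and the size of these differences is uncertain.

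Other low genes were not digestive enzymes. Lars2, the mitochondrial leucyl-tRNA synthetase (chromosome 9, 123366927 to 123462666, plus strand), stood at 41.2 and 1.74 (-3.94) in Glut2L and at 169 and 6.296 in Glut2H, lower after STZ in both pairs. Nudt1, which removes oxidised nucleotides, stood at 10.4 in control and was listed at 0 after STZ, and at 38.6 and 0.883 in Glut2H. Lcn2, a secreted protein that binds iron carriers of bacteria (chromosome 2, 32384633 to 32388252, minus strand), stood at 13.2 in control and was listed at 0 after STZ. In Glut2H, Lcn2 stood at 1.88 and was listed at 0 after STZ. Kctd15 stood at 76.6 and 1.64 (-4.88), Mylpf, a muscle myosin light chain, at 68.5 and 5.39 (-3.44), Ccdc63 at 30.6 and 0.508 (-4.39), Mroh7 at 17.6 and 0.426 (-3.71) and Efcab5 at 16.02 and 0.423 (-3.58). The bounds of these last 5 overlapped, as did those of Nudt1. Of the 20 lowest genes, 12 had bounds that did not overlap.

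Of the 20 highest genes 4 were histones, and 7 were listed at 0 in control. Bounds were apart for 4 of the 20. The highest ratio was that of Sowahc (chromosome 10, 59221953 to 59226434, plus strand), at 0.649 and 25.7 (4.02). Tpmt, which methylates thiopurine drugs, was listed at 0 in control and stood at 14.6 after STZ, and Ache, acetylcholinesterase, at 0 and 10.6. Fam166a stood at 1.38 and 35.2 (3.92), Lcp2, an adaptor of immune receptors, at 0.0957 and 11.4 (3.50), and Kdm4b, a histone demethylase, at 7.39 and 90.4 (3.45). Kdm4b, Erlin1 at 8.88 and 87.4 (3.16), Zfp771 at 3.01 and 41.4 (3.40) and Atp6v0c, the proton-conducting subunit of the vacuolar ATPase, at 3.58 and 37.7 (3.08) had the highest STZ levels outside the histones. Syt12 stood at 0.327 and 13.2 (3.42), Ccdc74a at 0.146 and 9.05 (3.13), Sap25 at 0.765 and 13.3 (3.01), Nsun3, a mitochondrial tRNA methyltransferase, at 1.698 and 20.6 (3.000), and Pgap2, which remodels GPI anchors, at 1.62 and 18.8 (2.92). Kcna10 and Klhl35 were listed at 0 in control and stood at 6.75 and 6.58. For 8 of the 20 highest and 9 of the 20 lowest genes the deposited locus is shared with other rows, against 45.0% of all protein-coding members.

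Genes that met the fold rule in both gates did so about as often in opposite directions as in the same one. Of 7598 genes that were members in both, 353 were higher in Glut2L (4.65%) and 446 in Glut2H (5.87%). The 61 that were higher in both are 17.3% of the former and 13.7% of the latter. For lower genes the shared number was 65, or 15.5% of the 420 in Glut2L (5.53% of the 7598) and 13.0% of the 500 in Glut2H (6.58%). In opposite directions, 58 were higher in Glut2L and lower in Glut2H, or 16.4% of the 353 and 11.6% of the 500. Another 64 were lower in Glut2L and higher in Glut2H, or 15.2% of the 420 and 14.3% of the 446. Each of these shares is above that of the same call over all 7598 genes. The Glut2L and Glut2H pairs share no library.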

How the data were processed

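Per the labels' protocols, RNA was purified with Norgen columns, and the stranded TruSeq total RNA kit with Ribo-Zero Gold gave the libraries. Per the submitters' processing notes, TopHat2, SAMtools and Cuffdiff were used on GRCm38 (mm10); the versions, the annotation and the strand setting were not stated there. The authors deposited FPKM, per the file headers, with bounds of unstated level and a status per gene. The 156680 values of the per-sample tables compared with the series table differed in 0 cases. The number of reads is unknown: among 1535 genes below 0.5 FPKM in both Glut2L libraries, no bin of 0.05 on the log2 ratio scale held more than 39, so whole reads were not recovered. The bounds of members had a median half-width of 80.3% of the FPKM in Glut2L control and 78.9% after STZ.

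Ratios, counts and medians were computed with Python 3.11.15, pandas 2.3.3 and numpy 2.4.6. The calculation was run on simulated data with known changes placed without noise. That run checks the arithmetic of the fold rule and not its behaviour under variation between libraries. Positions and gene types are from GENCODE M21 and promoters from RefSeq, both on GRCm38. A pseudocount of 1 FPKM understates the ratios of low genes, and where a library is listed at 0 no ratio is printed. Genes were named by a rule: Slc2a2 and both insulin genes, the 20 highest and lowest protein-coding ratios, up to 4 genes per direction of each list (or its extremes), and the 2 genes nearest the level limit on either side. The members and lists were chosen with earlier results of these data known. Alternatives changed the pseudocount, the level, the scale, the fold, the gene type, the locus length or the use of bounds. Leaving out a library was not possible with 1 per group. A few genes that the rule names are not reported here.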

Additional observations from a re-analysis of the deposited data

Results flagged for a closer look

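For 7 named genes the 2 gates were at least 2-fold apart in opposite directions, with 1 library behind each value, and the difference between the gates was not tested. In log2 ratios of STZ over control, the growth regulator Dlk1 had 1.37 in Glut2L and -1.12 in Glut2H. Hexokinase 1, Hk1, had -2.63 and 2.74, the cytokine Il6 1.26 and -2.07, and the demethylase Kdm4b 3.45 and -1.21. The immune adaptor Lcp2 had 3.50 and -2.27, the receptor Notch4 -3.22 and 1.49, and the pocket protein Rbl2 -1.14 and 1.52. The bounds of the Glut2L control and STZ values overlapped for each of the 7. In Glut2L, Hk1, Notch4 and Rbl2 passed the level only through the control library, and Il6 and Lcp2 only through the STZ library. In Glut2H, Dlk1 and Lcp2 passed only through control and Rbl2 only through STZ. All these directions were bound by the limit. Outside the rule, Txnrd3 (-2.18 and 4.18) and RP23-292F17.5 also had opposite directions. RP23-292F17.5 stood at 0 and 11.2 FPKM in Glut2L and 15.9 and 0 in Glut2H.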

How the results depend on the processing

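The acinar count of 27 lower genes ranged from 19 (bounds that do not overlap) to 30 (a level of 1 FPKM) under the alternatives run for lists. The other counts depended on the setting, given here as higher and lower against 500 and 545 for all members. A 3-fold rule gave 204 and 217, and a pseudocount of 5 gave 234 and 276, with 0 interferon genes higher and 2 lower, 2 p53 targets higher and 0 lower, and 1 alpha cell gene higher. A pseudocount of 0.1 gave 1 lower beta cell gene. A level of 1 FPKM gave 838 and 934, with 1 acinar gene higher, 16 histones higher, 7 p53 targets higher and a dedifferentiation median of 0.0882 in place of -1.05. A level of 20 FPKM gave 162 and 228, with 2 histones higher and 1 lower, 0 interferon genes higher and 4 lower, and 2 p53 targets higher and 0 lower. An equal sum over members gave 1085 and 290, with 19 histones higher and 1 lower, 2 interferon genes higher and 1 lower, 10 p53 targets, 4 alpha cell genes and 2 beta cell genes higher. The same sum without the insulin genes, added after the data were seen, gave 774 and 360, with 17 histones higher and 1 lower, 3 interferon genes lower, 7 p53 targets and 1 beta cell gene higher. Bounds that do not overlap left 7 and 25, with 3 histones higher and 0 lower, and 0 interferon, heat shock, p53 and alpha cell genes in either direction. No paired analysis was possible because each group holds 1 library, and depth is unknown, so counting error could not be given.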
